A study of Mus musculus with 2 samples.

Results

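The cells described here were those that the authors assigned to the cluster they named IPC1, taken from the table deposited for that cluster. All 2005 of its cells were used, of 10804 cells in the 12 clusters, with 867 from the WT library and 1138 from the iKD library. EYFP+ cells were sorted from the dentate gyrus (DG) 21 d after tamoxifen (TAM), given for 5 d to mice aged 7 to 10 wk at the start, and sequenced on the 10x platform. WT mice were NestinCreERT2;VEGFWT/WT;ROSA-STOP-EYFP and iKD mice carried floxed Vegfa alleles in place of the wild-type alleles, so both genotypes carried the Nestin-driven Cre and the reporter and received TAM. Each library pooled 5 littermates of its genotype, with 1 library per genotype, so no difference between genotypes has a replicate check and no p-value was computed.

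Intermediate progenitor cells (IPCs) of the adult DG arise from radial glia-like neural stem cells (NSCs), divide a few times and give rise to neuroblasts. They are known by the transcription factors Eomes and Neurog2, and by genes of the cell cycle. Sox4, a transcription factor of the SoxC group, and Ccnd3, a D-type cyclin, are among the genes used to place these cells, and both are also used by other cell types. Microglia, the resident macrophages of the brain, are known by Cx3cr1, P2ry12, Tmem119, Sall1 and the complement genes C1qa, C1qb and C1qc.

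The deposited values were turned back into counts of unique molecular identifiers (UMIs, 1 for each captured transcript). The IPC1 cells held a median of 8194 UMIs and 3188 genes in the WT library and 7173.5 UMIs and 2968.5 genes in the iKD library, and 7135043 and 8346696 UMIs in all. Below, a level is the mean over cells of counts per 10000 UMIs of the cell. A log2 ratio compares 2 levels, each with 0.01 added, and intervals are 95% and cover counting error only. A barcode of 6 IPC1 cells also occurred in the other library.

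The marker genes went against the name of the cluster. No UMI of Eomes, Tfap2c, Neurod4 or Insm1 was found in any of the 2005 cells, which allows a share of cells with a UMI of up to 0.184% for each (exact binomial), and Neurog2 had 1 UMI. Elavl4, an RNA-binding protein of neurons, was the seventh gene of the progenitor list and was seen in 8.63% of cells. The summed level of the 7 progenitor genes was 0.143 in WT and 0.148 in iKD IPC1 cells. The neuroblast genes Dcx, Neurod1, Igfbpl1 and Calb2 had no UMI either. The NSC genes Nes, Hopx and Sox2 were seen in 0.698%, 0.499% and 0.150% of cells.

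All 10 microglia genes were found at high levels in these cells. The complement gene C1qa had a level of 69.9, C1qb 57.9, the fractalkine receptor Cx3cr1 42.3 and the purinergic receptor P2ry12 31.6. Each of these 4 genes and Csf1r, the receptor for colony stimulating factor 1, had a UMI in 100% of cells. Tmem119 and Trem2 were each seen in 99.9% of cells, Fcrls in 99.6% and the transcription factor Sall1 in 91.5%. The summed level of the 10 genes was 371 in WT and 366 in iKD IPC1 cells. Over both libraries it was 368 in IPC1, 360 in IPC2, 345 in eNB and 423 in NSPCs, so it was not particular to IPC1. In the cluster named Astrocytes, where Ttr of the choroid plexus had a level of 1019, C1qa was seen in 57.5% of 134 cells and Sall1 in 19.4%, at median depths of 7722 UMIs there and 7623 in IPC1. The 10 genes with the highest levels in IPC1 included Cst3 (372), Malat1 (277), C1qa, Tmsb4x (64.7), C1qb, Ctsd (55.2), C1qc (46.3), Actb (45.2) and H3f3b (42.4), in UMIs per 10000. The border macrophage genes Cd163, Lyve1 and Ms4a7 had no UMI in IPC1, and Mrc1 was seen in 2.79% of cells. The cells are therefore called by the authors' name of their cluster, IPC1, without taking that name as their type.

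**Figure D1:**
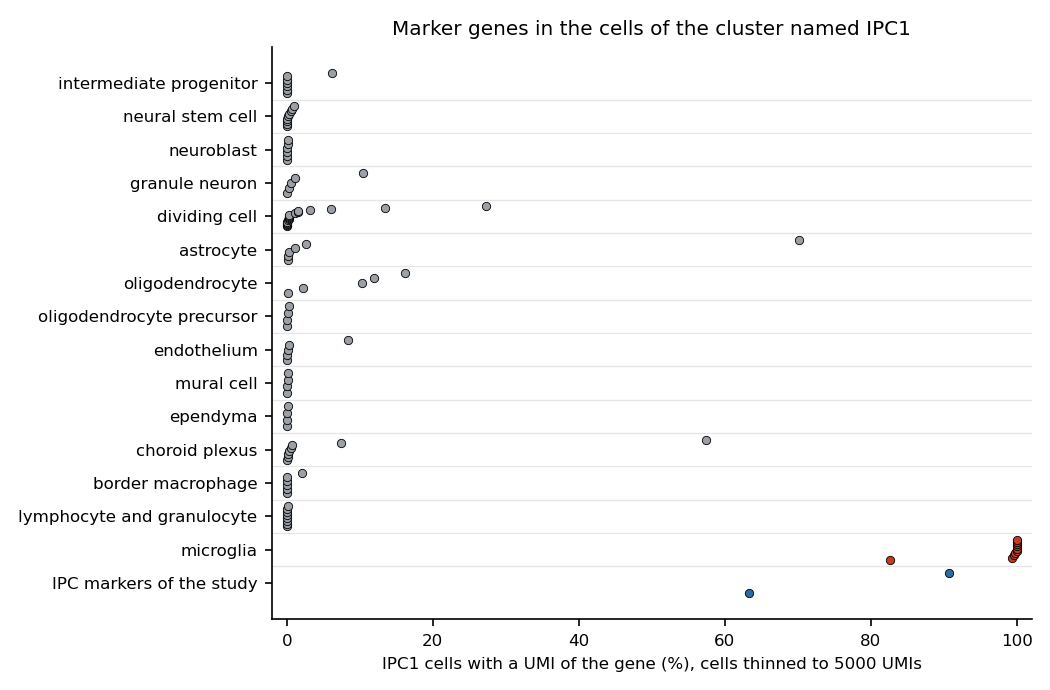
Share of IPC1 cells with at least 1 UMI of each marker gene (x axis, percent of 1935 cells thinned to 5000 UMIs), with 1 point per gene and 1 row per marker list. The 10 microglia genes (red) lie at or above 82.6%, and the 7 genes of the intermediate progenitor list at or below 6.15%.

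Genes of other cell types were read for the same cells. Of the 6 astrocyte genes, Slc1a3, a glutamate transporter, was seen in 79.0% of cells, whereas Aqp4 was seen in 0.399%. Prox1, a transcription factor of granule neurons, was seen in 14.9% of cells and Rbfox3 in 0.499%. Of the 18 genes of dividing cells, Mki67 was seen in 0.249% and Top2a in 0.499% of cells. Pcna, the sliding clamp of DNA replication, was seen in 36.9% and was the only one of the 18 to reach a level of 0.5, while Mcm3, a part of the replicative helicase, was seen in 18.7%. Ttr of the choroid plexus was seen in 60.3% of IPC1 cells and Enpp2 in 11.3%. The oligodendrocyte genes Cnp, Mbp and Mag were seen in 23.1%, 17.5% and 14.1%, and Pecam1 of the endothelium in 12.9%. No UMI was found of Olig2, a transcription factor of the oligodendrocyte lineage, or of Cldn5, a tight junction gene of the endothelium.

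Sox4 and Ccnd3, which the study names for these clusters, were present in IPC1, with similar or higher levels in some other clusters. Sox4 had a level of 3.85 in both the WT and the iKD library and was seen in 73.3% of cells. Its level was 3.81 in qNSC1, 3.62 in eNB, 3.59 in NSPCs, 3.05 in IPC2, 2.80 in aNSCs, 2.51 in NB and 1.80 in qNSC2. The log2 ratio of IPC1 over qNSC1 was 0.01 (-0.09 to 0.12), so the counts do not order the 2, while over eNB it was 0.09 (0.04 to 0.14). Ccnd3 had a level of 6.86 in WT and 6.5 in iKD IPC1 cells and was seen in 95.1% of all IPC1 cells. Its level was 9.09 in IPC2, 8.22 in aNSCs, 7.87 in qNSC2, 7.53 in eNB and 7.34 in NB, all above the 6.65 of IPC1, and lower in NSPCs (5.01) and qNSC1 (4.64). These levels leave out the smaller clusters. Summed over the 2 genes, the level was 19.2 in IN2 and 10.0 in IN1, against 10.5 in IPC1 and 12.1 in IPC2.

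Most IPC1 cells came from female mice by their sex-linked transcripts. Xist, the RNA that coats the inactive X chromosome, was seen without any Y-linked gene in 709 of 867 WT and 1013 of 1138 iKD cells, and a Y-linked gene without Xist in 97 and 59 cells. UMIs of both were found in 34 cells (1.70%). IPC1 held 22.4% (20.9 to 23.9) of the female cells of the WT library and 5.02% (4.09 to 6.09) of its male cells. In the iKD library it held 27.8% (26.3 to 29.2) of female and 5.28% (4.04 to 6.76) of male cells. IPC2 was of the opposite make-up, with 1683 male and 125 female cells. The genes used for clustering are not given in the sources used here, and the make-up by sex differed between clusters, so the sizes of IPC1 in the 2 libraries, 15.6% of WT and 21.6% of iKD cells, were not compared.

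Next, the levels of all genes in IPC1 were set against those of the other 11 clusters pooled (8799 cells). The clusters had been made from expression in these same cells, so this is a description of what sets the cluster apart and not a test. Of 3927 genes that reached a level of 0.5 in IPC1 or in the others, 20 (0.509%) were higher and 24 (0.611%) lower in IPC1, with a log2 ratio of at least 0.5 and an interval that leaves out 0. Of the 16 cell type lists, that of the choroid plexus was the only one with members past this rule, Ttr and Enpp2, both lower. None of the 10 microglia genes passed, with a median log2 ratio of 0.06. The median over all 3927 genes was 0.01.

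Genes of the clustered histones made up 9 of the 20 higher genes. Histones package DNA, and the clustered genes encode the linker histone H1 and the core histones H2A, H2B, H3 and H4 that are made in bulk when DNA is replicated. Most of their mRNAs end in a stem loop in place of a poly(A) tail, and the libraries here were made from poly(A) RNA. Of the 67 clustered histone genes in the tables, 10 reached the level of 0.5 in IPC1 or the other clusters. Of these, 9 were higher in IPC1, beside 0.509% of all genes, and all 10 had a positive log2 ratio, with a median of 0.83. This list was drawn up after the values had been seen. Of 10 variant histone genes, which are made outside replication as well, 6 reached the level and none passed, with a median of -0.03.

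Among the linker genes, Hist1h1c had a level of 2.66 in WT and 2.79 in iKD IPC1 cells, against 1.57 in the other clusters (log2 ratio 0.80, 0.75 to 0.85). Hist1h1d had a level of 1.73 in WT and 1.63 in iKD IPC1 cells, against 0.78 elsewhere (1.09, 1.02 to 1.15). Hist1h1e had 5.68 and 5.80, against 4.02 elsewhere (0.52, 0.48 to 0.55). Both libraries showed each gene above the other clusters. Of the H2A genes, Hist1h2ac had a level of 1.60 in WT and 1.55 in iKD IPC1 cells, against 0.64 elsewhere (1.29, 1.21 to 1.36), and Hist1h2ae 1.12 and 1.04 against 0.58 (0.89, 0.80 to 0.97). Of the H2B genes, Hist1h2bc had 3.16 and 2.84 against 1.64 (0.86, 0.81 to 0.91), and Hist1h2be 1.33 and 1.19 against 0.85 (0.56, 0.48 to 0.63). Hist1h3d, an H3 gene, had 0.615 and 0.716 against 0.26 (1.31, 1.20 to 1.42), and Hist4h4, an H4 gene, 0.911 and 0.965 against 0.64 (0.55, 0.46 to 0.64). For each of the 9 genes IPC1 had the highest level of the 8 clusters that the authors named as NSCs, NSPCs, IPCs or neuroblasts. The coding sequences of the core histone genes are close to identical within a class, so how reads were split among their copies is uncertain.

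On the mouse genome GRCm38 (GENCODE annotation, used here for position alone), 54 of the 67 genes lie on chromosome 13 between 21715763 and 23934851, and 9 of the 10 genes at the level are among them. Hist4h4 lies on chromosome 6. Hist1h2ac (23681467 to 23683948, minus strand) and Hist1h2bc (23684199 to 23692908, plus strand) stand back to back. Hist1h2be (23583670 to 23621124, minus strand) overlaps Hist1h1e (23620629 to 23622558, minus strand), so their reads could have been shared. The promoters of 8 of the 9 genes, from 150 bases before to 50 after the start of transcription, were found in the RefSeq table for GRCm38.p6, and 5 are printed because they show the elements that linker and core genes of this group did and did not share.
Hist1h1c, chr13:23738657-23738856, plus strand: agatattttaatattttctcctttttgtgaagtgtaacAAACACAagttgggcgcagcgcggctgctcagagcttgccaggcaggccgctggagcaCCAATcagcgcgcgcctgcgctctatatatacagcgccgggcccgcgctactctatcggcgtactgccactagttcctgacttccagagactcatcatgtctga
Hist1h1d, chr13:23554882-23555081, plus strand: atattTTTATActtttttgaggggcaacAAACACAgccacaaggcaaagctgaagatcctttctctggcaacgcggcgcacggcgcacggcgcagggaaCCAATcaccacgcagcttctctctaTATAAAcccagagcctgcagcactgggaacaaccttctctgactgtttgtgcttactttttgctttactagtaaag
Hist1h1e, chr13:23622509-23622708, minus strand: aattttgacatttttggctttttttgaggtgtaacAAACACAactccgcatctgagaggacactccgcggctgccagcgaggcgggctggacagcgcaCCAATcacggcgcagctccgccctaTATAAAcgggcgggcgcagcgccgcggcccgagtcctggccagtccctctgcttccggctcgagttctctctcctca
Hist1h2ac, chr13:23683910-23684109, minus strand: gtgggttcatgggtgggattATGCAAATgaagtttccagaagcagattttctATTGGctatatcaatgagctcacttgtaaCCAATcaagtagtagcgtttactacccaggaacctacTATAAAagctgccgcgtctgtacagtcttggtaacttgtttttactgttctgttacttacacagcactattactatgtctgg
Hist1h2ae, chr13:23571171-23571370, minus strand: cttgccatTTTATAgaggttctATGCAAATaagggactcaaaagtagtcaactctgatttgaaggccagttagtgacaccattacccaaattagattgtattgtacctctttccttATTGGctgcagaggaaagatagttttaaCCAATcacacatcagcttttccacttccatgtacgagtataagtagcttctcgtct
Capitals mark matches on either strand of AAACACA (the H1 box), ATTTGCAT (the octamer), CCAAT and TATAAA. The H1 box was present in all 3 linker promoters and in 0 of the 5 core promoters, and in 4.50% of 32851 RefSeq promoters of the same length. The octamer was present in 3 of the 5 core promoters (Hist1h2ac, Hist1h2ae and one start of Hist1h2be) and in 1.14% of all promoters. CCAAT was found for 7 of the 8 genes (28.6% of all promoters) and TATAAA for 5 of 8 (8.91%). The letters are a description of these windows alone.

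Counted per cell, the histone transcripts were spread over most of the cluster. After thinning each cell to 5000 UMIs, which left out 15 WT and 55 iKD cells of IPC1, the mean was 11.7 UMIs of the 67 genes per IPC1 cell. It was 8.29 in IPC2, 7.68 in NSPCs, 7.67 in aNSCs, 7.58 in eNB, 6.51 in qNSC2, 5.81 in qNSC1 and 3.54 in NB. Of the smaller clusters, the one named Astrocytes had a mean of 8.87, with 37.3% of its thinned cells at 10 UMIs or more, IN1 had 7.55 and IN2 4.61, and the cluster named Undefined had no cell at that depth. At least 10 UMIs, the median of IPC1, were found in 52.7% of IPC1 cells, 32.5% of IPC2 cells, 29.3% of NSPCs, 27.8% of eNB and 5.77% of NB. WT and iKD IPC1 cells had means of 11.8 and 11.6.

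Mean histone counts were similar in IPC1 cells split by UMIs of cycling cell genes. IPC1 cells with a UMI of Pcna had a mean of 11.2 histone UMIs (527 cells) and those without had 11.9 (1408 cells). The 45 cells with a UMI of Mki67, Top2a, Cdk1, Ccnb1, Ccnb2 or Ccna2 had a mean of 11.6. Pcna was seen in 27.2% of thinned cells, and a cell without a UMI may still have held the transcript. These splits therefore cannot separate cycling cells from the others. Female IPC1 cells had a mean of 11.4 and male cells 14.7. IPC1 was above the other large clusters within each sex, with 7.80 in female and 8.46 in male cells of IPC2, 7.57 and 7.45 in eNB, and 7.45 and 8.36 in NSPCs.

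**Figure D2:**
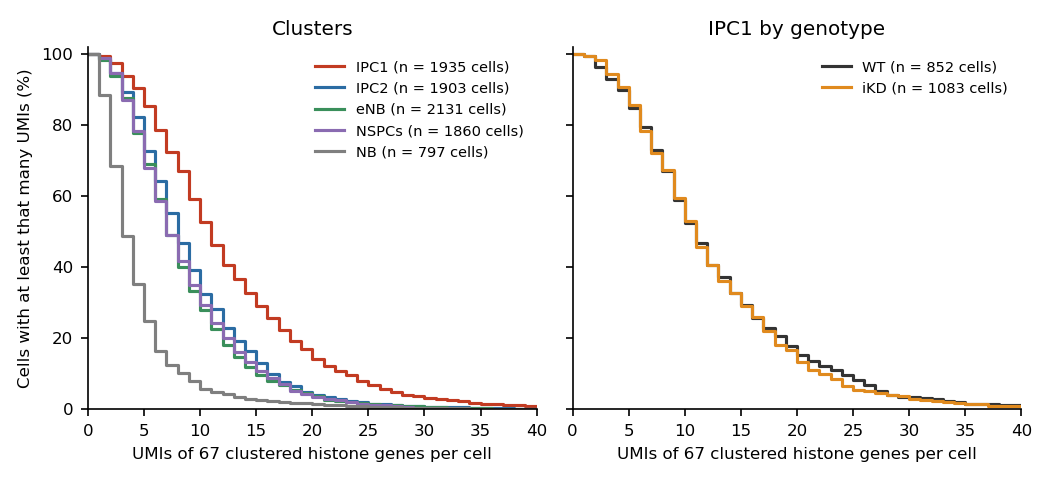
Share of cells (y axis, percent) with at least a given number of UMIs of the 67 clustered histone genes (x axis, UMIs per cell thinned to 5000 UMIs), for 5 clusters (left) and for WT and iKD IPC1 cells (right). The IPC1 line lies to the right of the others, with 52.7% of its cells at 10 UMIs or more, and the WT and iKD lines nearly overlie each other.

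The other higher genes included Errfi1 and Ier3. Errfi1, a feedback inhibitor of EGF receptor signalling, had a level of 2.11 in WT and 1.86 in iKD IPC1 cells, against 0.92 elsewhere (log2 ratio 1.09, 1.03 to 1.15). Ier3, an immediate early gene, had 0.560 and 0.637 against 0.29 (1.05, 0.94 to 1.16). The kinase gene Plk3 (0.72), the small GTPase gene Gem (0.64) and the pseudokinase gene Trib1 (0.57) were also higher, as was Slc15a3, a lysosomal transporter of peptides and histidine (0.52). Ccl3, a chemokine, had a level of 1.31 against 0.90 (0.53), but qNSC1 had 9.42. Ier3, Gem and Slc15a3 also had higher levels in qNSC1 than in IPC1. Xist (0.55) and its antisense partner Tsix (0.54) were higher in all cells, and their ratios were -0.021 and -0.018 when female cells alone were compared.

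Klf4, Fosb and Klf2 were lower in IPC1. Of the 20 immediate early genes in the list, which cells switch on quickly after a stimulus, 17 reached the level, 1 was higher and 3 were lower, beside 0.509% and 0.611% of all genes, with a median log2 ratio of 0.12. Klf4, a zinc finger transcription factor, had a level of 1.06 in WT and 1.07 in iKD IPC1 cells, against 3.44 in the other clusters (log2 ratio -1.68, -1.76 to -1.61). Fosb, a subunit of the AP-1 transcription factor, had 1.66 and 1.74 against 4.84 (-1.50, -1.56 to -1.44). It is also among the cell cycle genes by which the study describes the IPC and neuroblast clusters. Klf2, a relative of Klf4, had 2.76 and 2.85 against 4.81 (-0.77, -0.82 to -0.73). Tmx4, a thioredoxin-related membrane protein, had 2.99 and 3.87 against 7.42 (-1.09, -1.13 to -1.05), and Ptpro, a receptor tyrosine phosphatase, 2.74 and 3.10 against 4.66 (-0.66). Tsc22d3, a glucocorticoid-induced gene, had 1.93 and 1.89 against 2.82 (-0.56).

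The low genes also depended on which clusters stood on the other side. Klf4, Fosb and Tmx4 were lowest in NB and highest in eNB among these 8 clusters, and the levels of IPC1 (1.07, 1.71 and 3.49) lay near those of NB (0.87, 1.20 and 3.15). Apoe, a lipid carrier, had a level of 2.84 in IPC1 and 4.63 elsewhere (-0.70), with 15.3 in qNSC2 and 14.03 in qNSC1 but 1.97 in IPC2. Chchd10 (-2.73), Enpp2 (-2.17) and Ttr (-1.85) were the lowest 3 by ratio, and these became -0.0011, 0.028 and 0.19 without the cluster named Astrocytes. Of the 24 lower genes, 13 still passed without that cluster and 22 kept their direction.

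**Figure D3:**
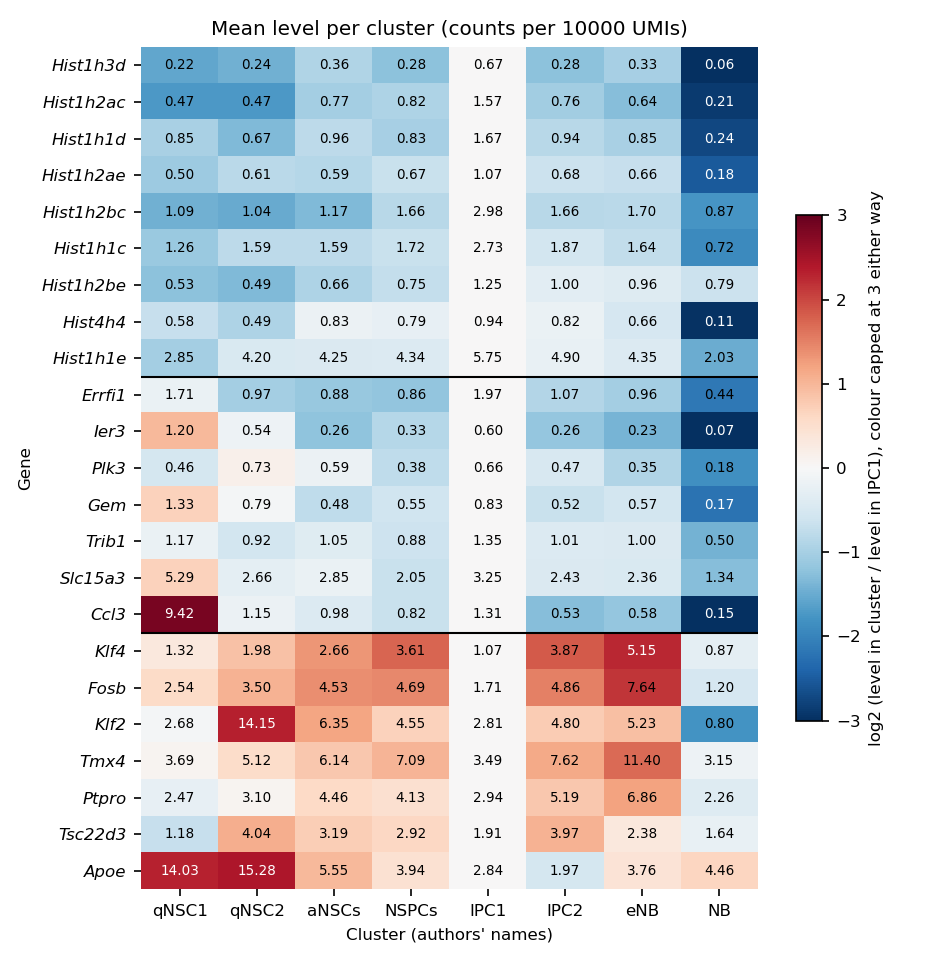
Mean level (number in each cell, counts per 10000 UMIs) of 23 genes in the 8 clusters named as NSCs, NSPCs, IPCs or neuroblasts, coloured by the log2 ratio of each cluster to IPC1. The 9 histone genes (top block) were highest in IPC1, and Klf4, Fosb and Tmx4 (bottom block) were higher in each cluster but NB.

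The clusters most like IPC1 by mean levels were eNB and IPC2. Against eNB (2169 cells), 19 of 3912 genes (0.486%) were higher in IPC1 and 24 (0.613%) lower, by the same rule. The higher genes held 7 clustered histone genes, Ier3 (log2 ratio 1.38), the chemokine genes Ccl3 (1.15), Ccl4 (1.12) and Ccl12 (0.83), Errfi1 (1.02) and the linker variant H1f0 (0.59). The lower genes were led by Klf4 (1.07 in IPC1, 5.15 in eNB, -2.26), Fosb (1.71, 7.64, -2.16), the predicted gene Gm26887 (0.171, 0.754, -2.07) and Tmx4 (3.49, 11.4, -1.71). Dusp1, a phosphatase of MAP kinases (-0.66), Klf6 (-0.59) and Fos (-0.50) were lower too.

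Against IPC2 (1963 cells), 19 of 3924 genes (0.484%) were higher and 31 (0.79%) lower in IPC1. Xist and Tsix were 2 of the higher genes and the Y-linked Ddx3y, Uty and Eif2s3y were 3 of the lower. Of the others, 6 clustered histone genes, Ccl4 (1.43), Ccl3 (1.28), Ier3 (1.17) and the cytokine gene Il1a (0.57) were higher. Klf4 (-1.85) and Fosb (-1.50) were lower again. The glucocorticoid list held 13 genes, the receptor gene Nr3c1 and genes that glucocorticoids are known to induce. Of the 13, 9 reached the level, none was higher and 3 were lower, Tsc22d3 (-1.05), Ddit4 (-1.02) and Fkbp5 (-0.84).

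These 3 values differed between the libraries, and 1170 of the IPC2 cells but 867 of the IPC1 cells were from WT. Fkbp5 had a log2 ratio of -1.10 (-1.16 to -1.04) of IPC1 over IPC2 in the WT library and 0.02 (-0.06 to 0.10) in the iKD library. Ddit4 had -1.35 (-1.47 to -1.22) in WT and -0.07 (-0.23 to 0.10) in iKD, and Tsc22d3 -1.24 and -0.71. Fkbp5 and Ddit4 were thus lower in IPC1 in the WT library, and their intervals held 0 in the iKD library. IPC2 held 9 female and 1067 male cells in WT, and 116 female and 616 male cells in iKD. IPC1 was mostly female in both libraries. The split by library therefore set mostly female against mostly male cells, and the female IPC2 cells were mostly from iKD. Library and sex were not split together. Within each sex all 3 were lower, with -0.93, -1.10 and -1.08 for Fkbp5, Ddit4 and Tsc22d3 in female cells and -0.40, -0.77 and -0.74 in male cells. By contrast, Klf4 was -1.88 in the WT and -1.81 in the iKD library, Fosb -1.31 and -1.76, and Ccl4 1.52 and 1.55. This split by library was added after the values had been seen.

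The IPC1 cells were not alike among themselves for a small set of genes. In cells thinned to 5000 UMIs, the variance of UMIs over cells was divided by the mean, a ratio of about 1 for counting error alone, for 4549 genes with a mean of at least 0.2. The median ratio was 1.13 and 141 genes were above 2. Cst3, a secreted protease inhibitor, had the highest ratio (23.8), followed by the nuclear RNA Malat1 (12.1), both of which are abundant and were seen in 100% of cells. Apoe (9.92), Ccl4 (9.19), Adamts1 (9.06) and Ccl3 (5.44) were seen in 38.7%, 26.9%, 15.1% and 20.9% of cells. The 10% of cells with the most Adamts1, a secreted metalloprotease, held 91.9% of its UMIs. For Ccl4 the top 10% held 74.0% of UMIs, for Ccl3 79.2% and for Apoe 67.2%. Csmd3 (7.21), Glul (6.29), Fos (5.85) and Zfp36l1 (5.54) varied too, but were seen in 88.8% to 98.6% of cells.

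The chemokines Ccl3 and Ccl4, which share receptors, went together in cells. Among the 10% of WT IPC1 cells with the most Ccl4, 65.9% (54.8 to 75.8, exact binomial) had a UMI of Ccl3, against 19.6% of the other cells. In iKD the shares were 48.1% (38.4 to 58.0) and 14.97%. This pair was chosen after its values had been seen, and cells of 1 library are not replicates.

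Finally, iKD cells were compared with WT cells within IPC1. Vegfa, the targeted gene, was close to the limit of detection. WT IPC1 cells held 29 UMIs (19.4 to 41.6, exact Poisson) in 19 of 867 cells, and iKD cells 9 UMIs (4.12 to 17.1) in 8 of 1138 cells. The log2 ratio of the levels was -1.23 (-2.49 to -0.11) with the 0.01 added and -1.86 without it. Transcripts outside the floxed part may be counted after recombination, so the value does not measure how many alleles were recombined. Among the other members of the family, Vegfb had 338 UMIs in WT and 440 in iKD cells, the coreceptor gene Nrp1 1264 and 1360, and the receptor gene Kdr (VEGFR2) 44 and 73. Vegfc, Pgf and Flt4 had none.

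Of 3939 genes that reached a level of 0.5 in WT or in iKD cells, 68 (1.73%) were higher and 95 (2.41%) lower in iKD IPC1 cells, with a log2 ratio of at least 0.25 and an interval that leaves out 0. The median over all these genes was 0.00 on the log2 scale. Ttr, a thyroid hormone carrier made by the choroid plexus, stood apart, with a level of 0.112 in WT and 9.87 in iKD cells (log2 ratio 6.34) and UMIs in 8.30% and 99.9% of cells. Its ratio was 6.02 in IPC2, 6.23 in eNB and 6.18 in NSPCs, close to that of IPC1, and 130 of the 134 cells of the Ttr-rich cluster named Astrocytes were from iKD. The other 7 choroid plexus genes stayed below a level of 0.5 in IPC1. The part of choroid plexus RNA in the other differences was not tested.

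Few other higher genes moved by much. Crybb1, a crystallin found in microglia, had a level of 3.61 in WT and 4.81 in iKD cells (log2 ratio 0.41, 0.34 to 0.49), with 0.42 in female and 0.37 in male cells. Inka1 went from 0.953 to 1.29 (0.43, 0.29 to 0.57), the sulfotransferase gene Sult1a1 from 0.614 to 0.831 (0.43, 0.26 to 0.61), Galk2 from 0.463 to 0.661 (0.50, 0.31 to 0.70) and Tmx4 from 2.99 to 3.87 (0.37, 0.29 to 0.45). Dusp1 was the 1 immediate early gene of 17 past the rule (2.43 to 2.91, 0.26, 0.17 to 0.35), and Cdk6, a partner of the D cyclins, the 1 gene of 4 on its list (2.08 to 2.56, 0.30, 0.20 to 0.39). Both counts stand beside 1.73% higher of all genes. Sox4 had a log2 ratio of 0.00 (-0.07 to 0.08) and Ccnd3 of -0.08 (-0.13 to -0.02).

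Of 17 heat shock genes, 12 reached the level, 5 were lower and none higher in iKD, beside 2.41% lower and 1.73% higher of all genes, and 11 of the 12 had a negative ratio, with a median of -0.19. Dnaja1, a cochaperone of HSP70, had a level of 2.26 in WT and 1.60 in iKD cells (log2 ratio -0.50, -0.61 to -0.39). Hsp90ab1, a cytosolic HSP90, had 8.39 and 6.59 (-0.35, -0.40 to -0.30), and Hspa8, the constitutive HSP70, had 8.19 and 6.47 (-0.34, -0.39 to -0.29). Dnajb1 had 0.814 and 0.597 (-0.44) and Hspe1 of the mitochondria 1.30 and 1.03 (-0.32). In thinned cells the median was 23 UMIs of the list per WT cell and 20 per iKD cell. In female cells the 5 genes were lower as well, and in male cells, which were 97 in WT and 59 in iKD, Hsp90ab1 was 0.23 (0.03 to 0.42) and Hspa8 was 0.00 (-0.19 to 0.19).

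Ccl4, Ccl3 and the transcript of the reporter locus were lower over all cells. Ccl4 had a level of 2.97 in WT and 1.93 in iKD cells (log2 ratio -0.62, -0.71 to -0.52), and Ccl3 had 1.57 and 1.10 (-0.51, -0.64 to -0.38). All 5 genes of the chemokine and cytokine list that reached the level had a negative ratio, with a median of -0.22. Past the rule were 2 of them, beside 2.41% lower of all genes. In male cells Ccl3 was 0.66 (0.27 to 1.05) and Ccl4 0.24 (-0.05 to 0.52). The mean of the female and male ratios of Ccl3 was 0.03, and Ccl3 had ratios of 0.51 in eNB and 0.08 in IPC2. Gt(ROSA)26Sor, the transcript of the locus that carries the EYFP reporter in both genotypes, had 1.23 and 0.775 (-0.66, -0.81 to -0.51), with -0.70 in NSPCs, -0.62 in eNB and -0.31 in IPC2. Traf3, an adaptor of immune receptor signalling, had 0.793 and 0.512 (-0.62, -0.80 to -0.44), and the transcription factor gene Hivep2 had 0.707 and 0.506 (-0.47). Rnaset2a (1.06 and 0.739, -0.51) has a close copy in Rnaset2b, so its value is uncertain.

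Of the 10 microglia genes, 1 was lower in iKD, beside 2.41% of all genes, with a median log2 ratio of -0.01, and of 16 homeostatic microglia genes none passed. The 1 was Trem2, a lipid-sensing receptor (16.99 and 14.1, -0.27, -0.30 to -0.23). The study names 6 genes for the cell-substrate junction, chosen on these samples and so no independent evidence. Of these, 5 reached the level and 2 were lower, Hspa8 and Trem2, beside 2.41% of all genes. Enpp2 stayed below the level. Of 84 ribosomal protein genes, 81 reached the level and 9 were lower, beside 2.41% of all genes, led by Rpl39 (5.25 and 4.11, -0.35) and Rps29 (13.4 and 10.5, -0.35), against a list median of -0.03. Of the clustered histone genes, 11 reached the level and none passed, with a median of -0.05.

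**Figure D4:**
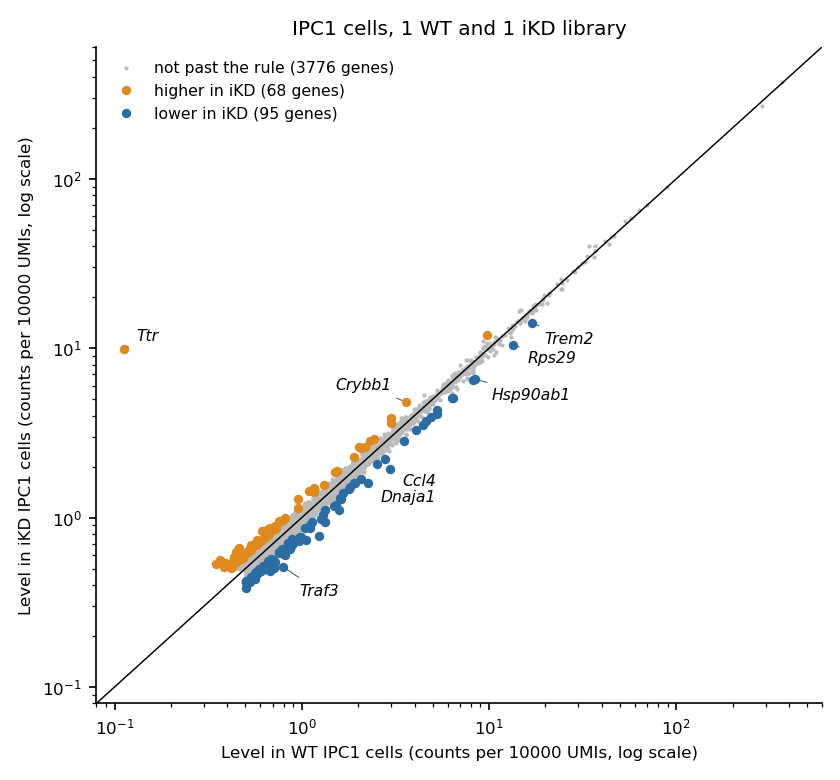
Level of each of 3939 genes in WT (x axis) and iKD (y axis) IPC1 cells, both in counts per 10000 UMIs on log scales, with 1 point per gene and the line of equal levels. The 68 higher (orange) and 95 lower (blue) genes lie close to the line, apart from Ttr at 0.112 and 9.87.

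Some of these values differed between female and male cells. Female cells were 88.0% of the WT and 94.5% of the iKD IPC1 cells that could be assigned. All 68 higher and all 95 lower genes kept their direction in female cells alone, and 46 and 72 of them in the far fewer male cells. Female cells made up most of the cells behind these calls, so their agreement was nearly given beforehand. In male cells alone, 10 of the 68 and 16 of the 95 also passed the rule. Fkbp5, a glucocorticoid-induced cochaperone, was lower over all cells (4.59 and 3.72, log2 ratio -0.30), but was -0.06 (-0.14 to 0.02) in female and -1.65 (-1.97 to -1.35) in male cells, and -1.42 in IPC2. Ddit4, another glucocorticoid-induced gene, was 0.00 (-0.17 to 0.18) in female and -1.59 (-2.36 to -0.90) in male cells. Nfkbia, an inhibitor of NF-kB, was -0.23 (-0.32 to -0.14) and -1.29 (-1.67 to -0.93). For these 3 genes the counting intervals of female and male cells did not overlap. Those intervals leave out the spread between cells and animals, and the difference between the sexes was not tested. Genotype, the animals pooled and the handling of each library cannot be told apart.

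**Figure D5:**
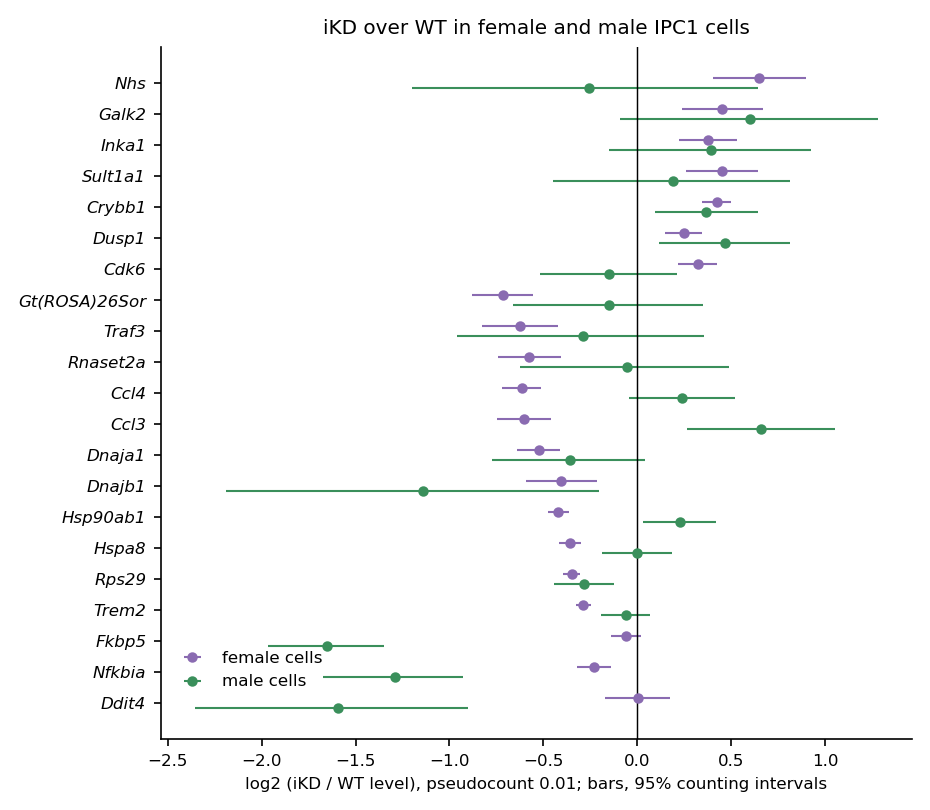
Log2 ratio of the iKD over the WT level (x axis, pseudocount 0.01) for 21 genes in female (purple) and male (green) IPC1 cells, with 95% counting intervals as bars. Fkbp5, Nfkbia and Ddit4 lie at -1.65, -1.29 and -1.59 in male cells and between -0.23 and 0.00 in female cells.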

How the data were processed

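The data were 1 WT and 1 iKD single-cell library, placed by the labels. Per the labels, reads were aligned and collapsed with Cell Ranger 7.0.1 and cells were clustered with Seurat 4.1.1. The processing notes list the human build GRCh38, and the mouse build is not given in the sources used here. The authors deposited natural log values, the natural log of 1 plus the UMIs of a gene per 10000 UMIs in its cell. UMI counts were recovered, and 100% of 32261786 values above 0 came out whole within a relative tolerance of 1e-06. All deposited cells were kept, among them 20 IPC1 cells under the lower limit of 2000 genes in the methods, and no doublet caller was run. The Wilcoxon test over cells used in the study was not repeated, because cells are not replicates.

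Levels, ratios and thinned counts were computed in Python 3.11.15 (numpy 2.4.6, pandas 2.3.3, scipy 1.17.1) and drawn in matplotlib 3.10.9, by a script checked on simulated data. Around each ratio of levels stands an exact binomial interval taken from summed UMIs. Female cells had Xist and no Ddx3y, Eif2s3y, Uty or Kdm5d, and male cells the reverse. Named genes were the 10 with the highest level, the 12 with the highest and the 12 with the lowest ratio in each comparison, the 12 most variable, and those on 39 lists. A further 2 lists, of histone genes, were added after the values had been seen, as were the comparison without the cluster named Astrocytes and the comparison with IPC2 within each library and sex. The cells and lists were chosen with earlier results of these data known. Some genes that these rules name are not reported here. Alternatives covered pseudocounts, level limits, scalings, single sexes and libraries, and sets of clusters.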

Additional observations from a re-analysis of the deposited data

Results flagged for a closer look

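Within IPC1, the log2 ratio of iKD over WT had opposite signs in female and male cells, with counting intervals that left out 0 in both, for 2 of the genes named. Ccl3 was -0.60 in female and 0.66 in male cells. Hsp90ab1 was -0.42 in female and 0.23 in male cells. The difference between the sexes was not tested, because each genotype had 1 library. Male IPC1 cells were 97 in WT and 59 in iKD, and Ccl3 was seen in 20.9% of thinned IPC1 cells. Its variance over these cells was 5.44 times its mean, so its counting intervals are too narrow for the spread over cells.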

How the results depend on the processing

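No paired analysis was possible because each genotype has 1 library, and no replicate could be left out. Of the 20 genes higher and 24 lower in IPC1 than in the other clusters, a pseudocount of 1 left 5 and 9, a level of at least 0.1 gave 47 and 125, one of at least 2 gave 5 and 8, a log2 limit of 0.25 gave 101 and 125, male cells gave 42 and 45, and the mean of the 11 cluster levels gave 67 and 330. Lower genes were 14 in female cells, 75 in the iKD library and 13 without the cluster named Astrocytes. Of the 68 genes higher and 95 lower in iKD, a pseudocount of 1 left 5 and 14, a level of 0.1 gave 305 and 316, one of 2 gave 11 and 18, a log2 limit of 0.5 gave 4 and 6, male cells gave 216 and 231, and the mean of the female and male ratios gave 313 and 351. IPC1 held 15.6% of WT and 21.6% of iKD cells, 22.4% and 27.8% of female and 5.02% and 5.28% of male cells.

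Over the other clusters, direction changed for Xist (-0.021) and Tsix (-0.018) in female cells, Atp5g1 (0.10) in male cells, Tubb4b (0.050) in the WT library and Ccl3 (-0.029) with the mean of the 11 levels. It also changed for Chchd10 (0.13), Enpp2 (0.30) and Ttr (0.26) with NSPCs, IPC2 and eNB as the others, and for Enpp2 (0.028) and Ttr (0.19) without the Astrocytes cluster. Between genotypes, male cells alone gave the opposite direction for Adamts1 (0.057), Ccl3 (0.66), Ccl4 (0.24), Cdk6 (-0.15), Gm43821 (-0.42), Hsp90ab1 (0.23), Nhs (-0.25), Rpl36a (0.079), Rpl41 (0.015) and mt-Nd3 (0.045). The mean of the female and male ratios did so for Ccl3 (0.029). The cause was not tested. None of the 45 named ratios between genotypes moved beyond its counting interval with thinned cells, summed UMIs, median scaling, a pseudocount of 0.001, a denominator without Ttr, sex-linked and mitochondrial genes, or without cells under 2000 genes. A pseudocount of 1 moved 28 of the 45, male cells 26 beside the 10 reversed, the mean of the sexes 22 and female cells 2. Of the 44 ratios over the other clusters, 44 moved with a pseudocount of 1 and 39 with the mean of the 11 levels. Male cells moved 35, NSPCs, IPC2 and eNB as the others 34, thinned cells 7 and a pseudocount of 0.001 moved 0.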

Other observations

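The genes named here were chosen after their values had been seen. Cochaperones outside the heat shock list also passed the rule in iKD over WT IPC1 cells, but not in 1 direction. Chordc1 (log2 ratio -0.35), St13 (-0.34) and Ppid (-0.25) were lower, and Bag1 (0.25) and Stub1 (0.29) were higher. The RNA-binding protein genes Cirbp (0.678 in WT and 0.867 in iKD cells, 0.35, 0.18 to 0.52) and Rbm3 (0.958 and 1.14, 0.25, 0.11 to 0.40), known to be induced by mild cold, were higher, and the Cirbp ratio was 0.29 in eNB, 0.27 in IPC2 and 0.30 in NSPCs. Cryba4, the crystallin gene beside Crybb1 in the genome, was higher as well (0.753 and 0.943, 0.32, 0.16 to 0.48). Among genes of immune cell surfaces, Cd52 (1.53 and 1.19, -0.36), Cd83 (0.833 and 0.647, -0.36), Cd300a (-0.28) and Gpr84 (-0.31) were lower. Others did not pass, such as Cd84 (0.02), Sirpa (-0.03) and Ptprc (-0.03), and no list of such genes was drawn up.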
